A study of Mus musculus with 36 samples.

Results

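Podosomes are small columns of actin that hold an osteoclast to bone, and the 40 genes described here encode their building and signalling parts. They were chosen by name, as kinases, linkers, actin-nucleating subunits, actin-binding proteins, GTPases such as Rac2 and Cdc42 with exchange factors, and myosins, and all 40 were found among the 30284 genes of the deposited transcript tables. The choice was made with earlier results of these data known, so counts of members set beside all genes describe this list only. The study sequenced RNA of 3 kinds of mouse bone cell culture from wild-type control (WT) and Mir324-null (null) mice aged 20 weeks, with 6 libraries in each of 6 groups and 36 libraries in all. Bone marrow macrophages (BMM) were grown from flushed marrow with M-CSF at 100 ng/mL for 3 days and then kept for 5 days with M-CSF at 30 ng/mL. Osteoclast cultures (OC) were macrophages grown in that way and then kept for 5 days with M-CSF at 30 ng/mL and RANK-L at 50 ng/mL, the cytokine that starts osteoclast formation. Osteoblast cultures (OB) grew out of collagenase-treated bone chips for about 6 weeks and then spent 18 days in medium with 2 mM β-glycerophosphate and 50 µg/mL ascorbic acid. Null cells lacked the microRNA gene Mir324 in all 3 kinds of culture, and the labels give no further detail of the allele. The labels do not say whether libraries of a group came from separate mice, or whether cultures of different kinds came from the same mice, so p-values measure the spread between these libraries, which may be technical.

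In a podosome, integrins and CD44 at the membrane are tied by talin, vinculin and paxillin to a core of branched actin. The Arp2/3 complex builds that core after activation by WASP and cortactin, and gelsolin, cofilin and profilin keep it turning over. In an osteoclast on bone, Src, Pyk2 and Cbl signal from the integrins, and the podosomes fuse into the actin ring that seals off the resorption pit.

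The sequences behind the genotype and the members that hold matches to it are shown first, because the null cells lack both mature arms of this microRNA. Capitals mark the seed (bases 2 to 8), and both sequences come from RefSeq (GRCm38.p6, plus strand).
miR-324-5p at chr11:70012060-70012082: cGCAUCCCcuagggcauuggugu
miR-324-3p at chr11:70012095-70012114: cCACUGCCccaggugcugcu
A match to the 5p seed (GGGATGC) lay in the longest annotated 3′ UTR of 2 of the 40 members (5.0%), against 1312 of 13554 genes (9.68%). A match to the 3p seed (GGCAGTG) lay in 5 members (12.5%), against 2402 genes (17.7%). The windows below are read from GENCODE M21 transcripts (GRCm38), 5′ to 3′ on the transcript strand, with the match in capitals.
Rhou, chromosome 8, 5p match at base 1981 of the UTR: ggacacttttctGGGATGCgtaccact
Dock5, chromosome 14, 5p match at base 1368: tctttgctaaggGGGATGCaagatgcc
Dock5, 3p match at base 3828: tgtgtacttcggGGCAGTGgatgacta
Pxn, chromosome 5, 3p match at base 1616: aaggtcagctctGGCAGTGgctgcaga
Rac1, chromosome 5, 3p match at base 3197: ttccataggccaGGCAGTGgtggccca
Rhoa, chromosome 9, 3p match at base 1012: gttcttatgggtGGCAGTGggtggggg
Wipf1, chromosome 2, 3p match at base 808: caatgtttggcaGGCAGTGagacctta
The genotype differences of these 6 genes had no common sign, as the later values show: among the differences past the threshold, Dock5 was higher in null macrophages and osteoblast cultures and lower in RANK-L cultures, Rhou was lower in RANK-L cultures (-3.65 ± 0.29), Pxn and Wipf1 were lower in macrophages and RANK-L cultures, Wipf1 was higher in osteoblast cultures, and Rac1 and Rhoa were higher in RANK-L cultures. A letter match is a description of sequence and not a site of action. The most abundant Rac1 transcript of the deposited tables is 2315 bases long, shorter than the 3341 bases of the M21 UTR that holds the Rac1 match.

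Promoters of 250 bases before to 50 bases after a start site were listed by RefSeq (GRCm38.p6) for 32 of the 40 members. None was listed for Actb, Cttn, Dock5, Ptk2, Ptk2b, Pxn, Rac1 and Rac2, which were therefore not searched. The CArG box, the sequence bound by serum response factor at many actin genes, was searched on both strands and found in 3 of these 32 members (9.38%), against 1.81% of 27025 genes. The windows are shown 5′ to 3′ on the gene's strand with the box in capitals.
Actg1, chr11:120348566-120348595, minus strand: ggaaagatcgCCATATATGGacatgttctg
Myo1e, chr9:70207308-70207337, plus strand: gctgaattctCCATTTATGGacagattgcc
Vcl, chr14:20929161-20929190, plus strand: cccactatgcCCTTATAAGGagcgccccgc
These 3 genes encode cytoplasmic γ-actin, a class I myosin and vinculin. The core GAGGAA, bound by the myeloid factor PU.1, was in 10 of 32 members (31.2%), against 31.3% of genes, and TGANTCA, bound by AP-1, was in 3 members (9.38%), against 8.97%.

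Library depth was 14118972 to 26347581 estimated counts. Between libraries of a WT group the spread beyond counting noise (biological coefficient of variation) was 9.44% to 12.9%, and between those of a null group 18.4% to 20.8%. The null BMM libraries fell into 2 sets of 3 on the first principal component over 8247 genes, which held 58.6% of their variance: libraries 1, 5 and 6 were on one side (0.33 to 0.45) and libraries 2, 3 and 4 on the other (-0.57 to -0.19). Log2 deviations from the group mean rose with transcript length in the former (Spearman correlation 0.16 to 0.51 across genes) and fell in the latter (-0.41 to -0.27). Counts of members that use null BMM are therefore also given for each set, with the values of some members. Because the sets were made from these same values, the spread within a set is small by construction. Calls and adjusted p from fits of a set describe the dependence on libraries and are not valid tests. Libraries of other groups showed such trends too, from -0.52 to 0.5 in WT OC, -0.35 to 0.38 in null OC and -0.36 to 0.16 in WT BMM. In OB libraries the correlations were -0.29 to 0.23. The summed level of 8 osteoclast markers was 31000 to 35340 TPM (a level scaled for transcript length that sums to 1000000 in every library) in WT OC. In null OC it was 233.5 to 568.9 TPM with Calcr, the calcitonin receptor, at 0, while 8 macrophage markers stood at 52880 to 62300 TPM against 15520 to 17440 TPM in WT OC. The null libraries labelled osteoclasts thus carry macrophage markers at the level of null BMM (56230 to 58960 TPM) and are called null RANK-L cultures below. Lyz2 made up most of these sums, with means of 49810 TPM in null OC and 11860 TPM in WT OC. Of the 8 markers 6 were higher in null OC and 1 lower by edgeR's test. Cd68 was lower in mean (2393 against 3328 TPM), and Csf1r (623.4 against 544.6 TPM) and Mrc1 (47.73 against 45.11 TPM) were close. Osteoblast markers summed to 20630 to 29690 TPM in WT OB and 36070 to 49560 TPM in null OB. Both OB groups also held macrophage markers, at 14830 to 18750 TPM in WT and 8617 to 13430 TPM in null, again mostly Lyz2 (means of 14900 and 9609 TPM). Osteoclast markers there were at 4090 to 5144 TPM in WT and 5339 to 8072 TPM in null. Of 10 neutrophil genes, S100a9, Ltf, Elane and Retnlg were at 0 in null BMM, and S100a8 held most of the sum of 44.2 to 107 TPM there, against 2.17 to 3.57 TPM in WT BMM. Summed smooth muscle and fibroblast markers were at 3824 to 5432 TPM in OB and at most 31.1 TPM elsewhere, adipocyte markers at most 39.3 TPM, proliferation genes 113.3 to 299.3 TPM and B and T cell genes at most 1.39 TPM. In bulk RNA, fewer cells of a kind and less RNA per cell cannot be told apart.

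Summed over the 40 members, WT libraries had 2.91% of their TPM here in BMM, 3.56% in OC and 1.97% in OB, and null libraries had 3.05%, 3.60% and 2.14%. Actb, cytoplasmic β-actin, was the most abundant member in every group, with median levels from 6750 TPM in WT OB to 16510 TPM in null RANK-L cultures. Without Actb the remaining 39 members held 2.31% of TPM in WT OC and 1.96% in null RANK-L cultures. Profilin 1 (Pfn1), the Arp2/3 subunit Arpc1b and cofilin (Cfl1) followed in WT OC, with medians of 4704, 2944 and 2212 TPM. At the other end, Rhou had a median of 2.32 TPM in WT OC and at most 4 counts in any WT BMM library.

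**Figure D1:**
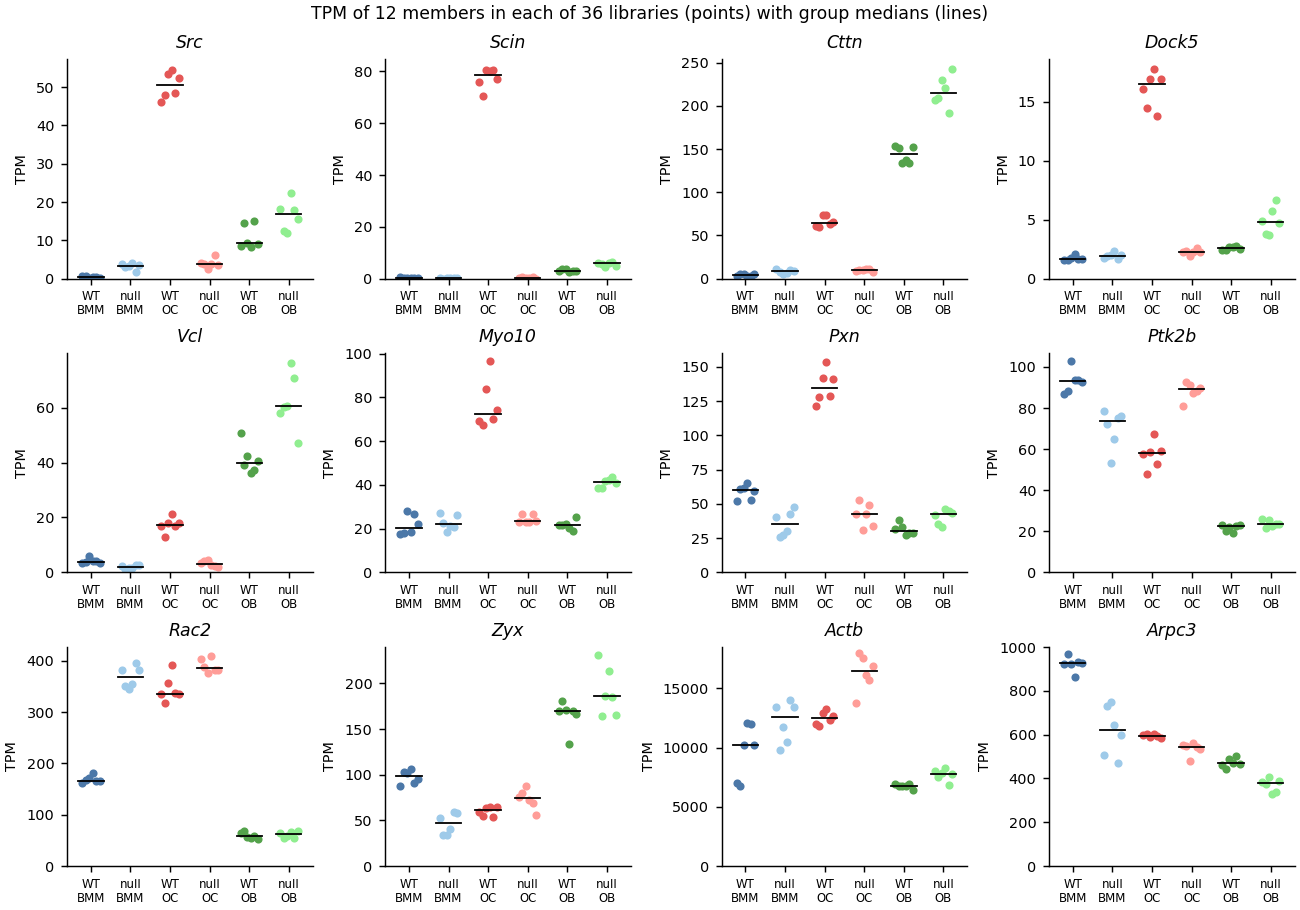
TPM of 12 members in each of the 36 libraries (points), with the group median as a line, for WT and null BMM, OC and OB. Src, Scin and Dock5 stand high in WT OC alone among the myeloid groups (Src 46.1 to 54.6 TPM), Cttn and Vcl are higher still in OB, and Rac2 is near 170 TPM in WT BMM against 344.3 TPM or more in null BMM.

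The first question was which podosome genes changed when WT macrophages became osteoclasts. Among members with a mean of at least 10 CPM (scaled counts, defined below), scinderin, Src, cortactin and Dock5 rose most. Vinculin, both α-actinins, Cd44 and both myosins rose by smaller amounts, and Cbl, Pyk2, zyxin and the Vav exchange factors fell. Of the 40 members, 31 passed the threshold of edgeR's quasi-likelihood test (Benjamini-Hochberg adjusted p under 0.05 over 12671 genes), 21 of them higher and 10 lower in OC, where 60.5% of all genes tested passed, 30.4% higher and 30.1% lower. The median log2 fold change of the members was 0.29, beside 0 over all genes tested. In 30 members (75.0%) the 6 OC and 6 BMM libraries did not overlap, against 50.3% of genes.

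Counts by functional group are descriptions, to be read beside the 60.5% of all genes that passed (30.4% higher and 30.1% lower). Among the adhesion kinases and adaptors all 5 passed. Src (chr2:157418444-157471862, plus strand), the tyrosine kinase without which osteoclasts form no ruffled border, had scaled counts (CPM, the count in each 1000000 counts of a library) of 0.35, 0.86 and 1.83 (lowest, median and highest) in WT BMM and 111.9, 118.8 and 123.5 in WT OC. All 6 OC libraries lay far above all 6 BMM libraries, and the log2 fold change was 7.03 ± 0.23 (SE, n = 6 per group, edgeR adjusted p = 1.29e-19). Focal adhesion kinase (Ptk2), which is close kin to Pyk2, rose 2.83-fold (edgeR adjusted p = 1.25e-08), from a median of 5.39 to 16.1 CPM. Paxillin (Pxn), the adaptor of integrin plaques, rose by 0.89 ± 0.11, from a median of 140.7 to 264.4 CPM. Pyk2 itself (Ptk2b), the adhesion kinase that osteoclasts use with Src, went the other way, from 226.7, 235.6 and 257 CPM in BMM to 120.5, 134.9 and 145.8 CPM in OC. Its groups did not overlap and the log2 fold change was -0.84 ± 0.07 (edgeR adjusted p = 4.46e-11). Cbl, a ubiquitin ligase that Src phosphorylates, had 131.6, 137.9 and 143.5 CPM in BMM and 53.2, 61.0 and 68 CPM in OC. That was the steepest fall of any member, at -1.19 ± 0.11 (edgeR adjusted p = 6.27e-10).

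Of the 7 integrin and plaque linkers, 4 were higher and 2 lower. Vinculin (Vcl), the tension-bearing link between talin and actin, had 11.6, 14.1 and 20.3 CPM in BMM and 45.1, 57.9 and 65.1 CPM in OC, without overlap, a log2 fold change of 1.96 ± 0.16 (edgeR adjusted p = 4.18e-11). In GENCODE M21 sequence Vcl shares 39.4% of the 31-base words of its leading transcript with Ap3m1, which overlaps it. Ap3m1 itself differed by 0.12 ± 0.07 (edgeR adjusted p = 0.157). The α-actinins, which cross-link actin filaments, rose too: Actn1 by 1.25 ± 0.08 and Actn4 by 0.74 ± 0.07. The hyaluronan receptor Cd44, which sits in the podosome core, rose by 0.78 ± 0.06. Zyxin (Zyx), a LIM protein of mature adhesions, fell from 144.3, 154 and 170.3 CPM to 80.9, 89.0 and 94.2 CPM, at -0.82 ± 0.10 on the log2 scale (edgeR adjusted p = 4.04e-08). Kindlin-3 (Fermt3), which activates integrins in blood cells, fell by 0.26 ± 0.05, and talin (Tln1) did not pass (0.11 ± 0.08, edgeR adjusted p = 0.249).

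Branched actin nucleation gave a divided picture, with 3 higher and 2 lower of 10. Cortactin (Cttn, chr7:144435733-144471009, minus strand), which holds Arp2/3 branches in place, had 6.00, 6.86 and 9.42 CPM in BMM and 113.5, 118.2 and 125.1 CPM in OC. Every OC library exceeded every BMM library, with a log2 fold change of 4.05 ± 0.14 (edgeR adjusted p = 1.22e-19). The Arp2/3 subunits moved far less. Actr3 (Arp3) and Actr2 (Arp2) rose by 0.53 ± 0.06 and 0.39 ± 0.08, while Arpc3 fell by 0.75 ± 0.10 (edgeR adjusted p = 4.06e-07) and Arpc1b fell by 0.20 ± 0.05. Arpc2, Arpc5 and the activators Was (WASP), Wasl (N-WASP) and Wipf1 (the WASP partner WIP) did not pass, with log2 fold changes from -0.15 to -0.02. Shared 31-base words were counted in GENCODE M21 sequence, which has 4129 words for Rac1-201, where the deposited transcript has 2315 bases. The shared part of the deposited Rac1 transcript may therefore differ. In M21 sequence Actr3, Actg1, Rac1 and Arpc1b share 50.0% to 63.6% of the 31-base words of their leading transcripts with other genes. These are 2 genes each for Actr3 and Rac1, 16 for Actg1 and 743 for Arpc1b, and the values of these members are therefore uncertain. To a lesser degree this holds for Actb, with 35.2% shared with 43 genes, and Cfl1, with 25.8% shared with 5.

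Genes of actin and its turnover were higher in 5 of 6, beside 30.4% of all genes. Scinderin (Scin, chr12:40059769-40134228, minus strand), a calcium-dependent actin-severing protein of the gelsolin family, had 0.45, 0.59 and 0.91 CPM in BMM and 134.6, 139.9 and 150 CPM in OC. No other member moved further, with a log2 fold change of 7.80 ± 0.22 (edgeR adjusted p = 6.35e-21). Gelsolin (Gsn), its abundant relative, rose only from 907.2, 943.7 and 997.4 to 1126, 1196 and 1266 CPM, which is 0.33 ± 0.05 (edgeR adjusted p = 3.9e-06). Actg1 and Pfn1 rose by 0.70 ± 0.08 and 0.42 ± 0.06. Actb passed narrowly (0.25 ± 0.11, edgeR adjusted p = 0.0463) with overlapping groups, since WT BMM spanned 8148 to 14650 CPM, and it no longer passed when any of 15 of the 24 libraries was left out (0.17 to 0.27), with the highest adjusted p of 0.143 without WT BMM library 2. Cfl1 did not pass. The bundler L-plastin (Lcp1) did not pass either, and the tropomyosin Tpm4, which coats filaments of the actin ring, rose by 0.61 ± 0.06.

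Dock5 (chr14:67752135-67933442, minus strand), a Rac exchange factor of the osteoclast sealing zone, had 11.2, 11.98 and 15.3 CPM in BMM and 93.8, 110.1 and 111.8 CPM in OC, a log2 fold change of 3.09 ± 0.10 (edgeR adjusted p = 3.08e-20). Rac2, the Rac of blood cells, rose by 0.91 ± 0.05, from a median of 336.6 to 641.1 CPM. Rhou rose by 6.12 ± 0.49, but from 0 to 4 counts per WT BMM library to 84 to 104 counts per WT OC library, so its fold change rests on few counts. Vav1 and Vav3, the exchange factors that act on Rac after integrin and immune receptor signals, fell by 0.65 ± 0.05 and 0.58 ± 0.13. Their groups did not overlap, with 134.9 to 150.4 CPM of Vav1 in OC below 216 CPM in the lowest BMM library. Cdc42 fell by 0.25 ± 0.04 and Rac1 by 0.41 ± 0.17, and Rhoa did not pass (-0.01 ± 0.04). Rac1 no longer passed when any of 8 of the 24 libraries was left out, with the highest adjusted p of 0.0883 without WT OC library 4. The unconventional myosins both rose. Myo10, which moves along filopodia and ties actin to microtubules, had 84.2, 99.4 and 128.8 CPM in BMM and 332.2, 344.5 and 408.3 CPM in OC (1.77 ± 0.10, edgeR adjusted p = 3.26e-15), and Myo1e, a membrane-bound motor, rose by 1.03 ± 0.13.

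**Figure D2:**
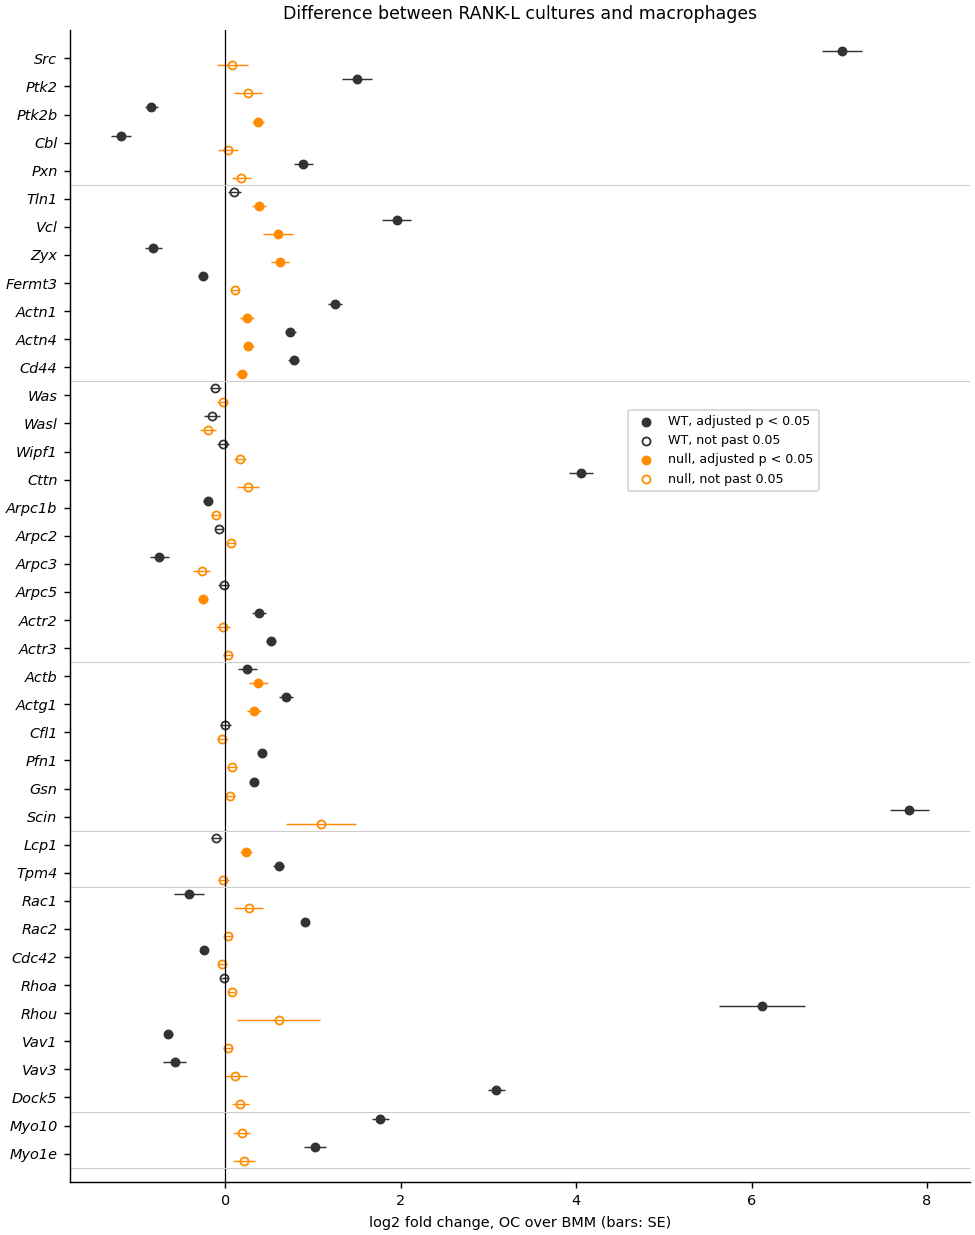
Log2 fold change of OC over BMM for each of the 40 members, in WT (black) and null cells (orange), with SE bars, filled points for an adjusted p under 0.05, and grey lines between functional groups. WT values reach 7.03 for Src and 7.80 for Scin, and the null values lie between -0.27 and 1.10.

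Null macrophages given RANK-L were compared with null macrophages without it to ask how far the same genes moved there. Osteoclast markers rose there in 6 of 8 by edgeR's test, from a sum of 158.9 to 202.9 TPM in null BMM to 233.5 to 568.9 TPM, with Calcr at 0 in both groups, and 1 of 8 macrophage markers was lower. The part of these markers in the changes below was not tested. Of the 40 members 11 passed, 10 higher and 1 lower, where 12.9% of all genes passed (6.77% higher and 6.08% lower), and the largest change among these 11 was 0.63. This count depended on the null BMM libraries. As a description, it was 3 members (87 genes in all) with libraries 1, 5 and 6, and 16 (3829 genes) with libraries 2, 3 and 4. Groups did not overlap in 3 members (7.5%: Zyx, Ptk2b and Lcp1), against 2.24% of genes. Src, the gene with the second-largest WT change, had 4.79, 8.81 and 11.2 CPM in null BMM and 6.91, 8.92 and 10.9 CPM in null RANK-L cultures. The groups overlapped almost fully, and the log2 fold change was 0.08 ± 0.18 (edgeR adjusted p = 0.807). Cttn (0.26 ± 0.13), Dock5 (0.17 ± 0.10), Pxn (0.18 ± 0.11), Myo10 (0.19 ± 0.10) and Gsn (0.06 ± 0.05) did not pass. Scin stayed between 0 and 1.27 CPM in the null RANK-L cultures (1.10 ± 0.40, edgeR adjusted p = 0.0664).

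Zyx gave the largest passing change in null cells, from 64.9, 79.5 and 99.0 CPM to 99.9, 126.5 and 152.6 CPM, a log2 fold change of 0.63 ± 0.10 (edgeR adjusted p = 0.000619), opposite in sign to the WT value. Ptk2b also rose in null cells, from 140.5, 184.6 and 196.8 to 214.9, 230.6 and 247.4 CPM (0.38 ± 0.07, edgeR adjusted p = 0.00245). Integrin and plaque linkers supplied 6 of the 11, with Vcl at 0.60 ± 0.17, Tln1 at 0.38 ± 0.08, Actn4 at 0.27 ± 0.07, Actn1 at 0.25 ± 0.08 and Cd44 at 0.19 ± 0.06 besides Zyx. Actb (0.38 ± 0.11), Actg1 (0.33 ± 0.08) and Lcp1 (0.24 ± 0.07) completed the higher set, and Arpc5 was the lower one (-0.25 ± 0.06, edgeR adjusted p = 0.00992). Without null BMM libraries 2, 3 and 4, the calls of Ptk2b (0.24), Vcl (0.39), Tln1 (0.28), Actb (0.29), Actn1, Actn4, Lcp1 and Cd44 were lost, and Zyx, Actg1 and Arpc5 were left. With libraries 2, 3 and 4 alone, those of Actg1 (0.21), Actn1 (0.21) and Cd44 (0.15) were lost. Single libraries also decided some calls: that of Vcl was lost without null BMM library 2, 3 or 4 or null RANK-L library 2 or 3 (0.47 to 0.58), that of Actb without null BMM library 2 or 4 or null RANK-L library 3 (0.34 to 0.35), that of Lcp1 without null BMM library 2, 3 or 4 (0.20 to 0.21), and those of Actn1 and Cd44 in 10 and 17 of 24 such fits. With an offset for average transcript length the change of Tln1 was 0.03 (adjusted p = 0.916).

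The difference between the 2 responses was tested as an interaction, the null change minus the WT change. It passed for 32 of 40 members, 11 higher and 21 lower, where 51.4% of genes passed (25.3% higher and 26.1% lower). The members' median was -0.25, beside -0.01 over all genes tested. The 5 members with the smallest p were Src at -6.95 ± 0.29, Dock5 at -2.92 ± 0.13, Cttn at -3.79 ± 0.18, Rac2 at -0.87 ± 0.07 and Ptk2b at 1.22 ± 0.10 (edgeR adjusted p from 3.32e-16 to 5.7e-11 for the last 4, and 9.66e-17 for Src). Every one of the 7 plaque linkers differed, 4 toward less and 3 toward more in null cells, with Zyx at 1.44 ± 0.14 at one end and Vcl at -1.35 ± 0.24 at the other. Pxn (-0.71 ± 0.15) and Gsn (-0.27 ± 0.07) also passed. Actb did not (0.13 ± 0.15, edgeR adjusted p = 0.528), and neither did Was, Wasl, Wipf1, Arpc1b, Arpc2, Cfl1 or Rhoa. The call of Tln1 (0.28 ± 0.11) did not hold without any of 10 of the 24 libraries (0.21 to 0.27) and was -0.10 with the offset for average transcript length, and that of Arpc5 (-0.23 ± 0.09) was lost without null BMM library 1. The count was 29 with null BMM libraries 1, 5 and 6, where Tln1 (0.18), Lcp1 and Actg1 no longer passed, and 31 with libraries 2, 3 and 4, where Rac1 (0.46), Actr2 and Arpc5 did not.

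Directly between the genotypes in RANK-L cultures, 31 of 40 members passed, 10 higher and 21 lower in null, where 65.5% of 12129 genes passed (32.4% higher and 33.1% lower). The members' median log2 fold change was -0.25, beside -0.03 over all genes. This comparison uses the same WT OC libraries as the WT response above, so its values are set beside that response and not counted as a second line of evidence. In 27 members (67.5%) the groups did not overlap, against 45.4% of genes. All 8 osteoclast markers were lower in the null cultures and 6 of 8 macrophage markers higher with 1 lower, and their part in the differences below was not tested.

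Scin was lowest relative to WT, with 0 to 1.27 CPM against 134.6 to 150 CPM, a log2 fold change of -7.71 ± 0.23 (edgeR adjusted p = 8.67e-14). Src had 6.91, 8.92 and 10.9 CPM in null against 111.9, 118.8 and 123.5 CPM in WT (-3.73 ± 0.10, edgeR adjusted p = 1.01e-14). Dock5 had 15.4, 17.6 and 18.9 CPM against 93.8, 110.1 and 111.8 CPM (-2.59 ± 0.07, edgeR adjusted p = 1.2e-14). In each of these 3 genes the null libraries reached about the null BMM level and no WT library came near. Cttn had a log2 fold change of -2.53 ± 0.09, Vcl had -2.21 ± 0.17 and Cd44 was 2.83-fold lower, all without overlap (edgeR adjusted p from 3.5e-13 to 7.07e-09). Rhou was at 3 to 17 counts per null library against 84 to 104 in WT. Pxn had 81.6, 110.6 and 130.4 CPM against 231.1, 264.4 and 282.6 CPM, a log2 fold change of -1.28 ± 0.09 (edgeR adjusted p = 3.22e-09). Both myosins were lower, Myo10 by -1.38 ± 0.06 and Myo1e by -0.99 ± 0.05. Among the others, Actn1 (-0.83 ± 0.07), Actr3 (-0.81 ± 0.05), Actn4 (-0.61 ± 0.05) and Gsn (-0.41 ± 0.05) were lower, and Wipf1, Tpm4, Was, Actr2, Tln1, Arpc5 and Actg1 were lower by -0.40 to -0.25. The call of Tln1 did not hold with an offset for average transcript length (-0.08, adjusted p = 0.41).

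Ptk2b led the 10 higher members in null RANK-L cultures, with 214.9, 230.6 and 247.4 CPM against 120.5, 134.9 and 145.8 CPM in WT. The groups did not overlap, and the log2 fold change was 0.80 ± 0.06 (edgeR adjusted p = 4.09e-09). Vav1 was higher by 0.71 ± 0.05, with 217.2, 232 and 252.2 CPM against 134.9, 143.2 and 150.4 CPM. Actb had 17800, 21490 and 23320 CPM against 13750, 13930 and 14360 CPM, again without overlap (0.59 ± 0.06, edgeR adjusted p = 2.94e-07). Zyx was higher by 0.50 ± 0.09 and Fermt3 by 0.46 ± 0.05. Rac1 (0.66 ± 0.19) and Ptk2 (0.52 ± 0.18) passed with overlapping groups, since the null libraries ranged from 51 to 155.1 and from 13.3 to 36.2 CPM, and Ptk2 did not pass by limma-voom (0.28, adjusted p = 0.0824). Daglb, which overlaps Rac1 and shares sequence with it in GENCODE M21, was higher by 1.02 ± 0.08 in the same comparison. Rac2, Arpc1b and Rhoa were higher by 0.38 ± 0.05, 0.23 ± 0.05 and 0.16 ± 0.04. Cbl, Vav3, Arpc2, Arpc3, Lcp1, Pfn1, Cfl1, Wasl and Cdc42 did not pass. Some of them were called as higher in alternative fits or with a library left out: Cbl in 7 such fits (0.27 to 0.39), Arpc2 in 7 (0.10 to 0.14) and Lcp1 in 5 (0.11 to 0.12). Pfn1 was called in 2 (0.11 to 0.16) and Arpc3 in 1 (0.18).

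**Figure D3:**
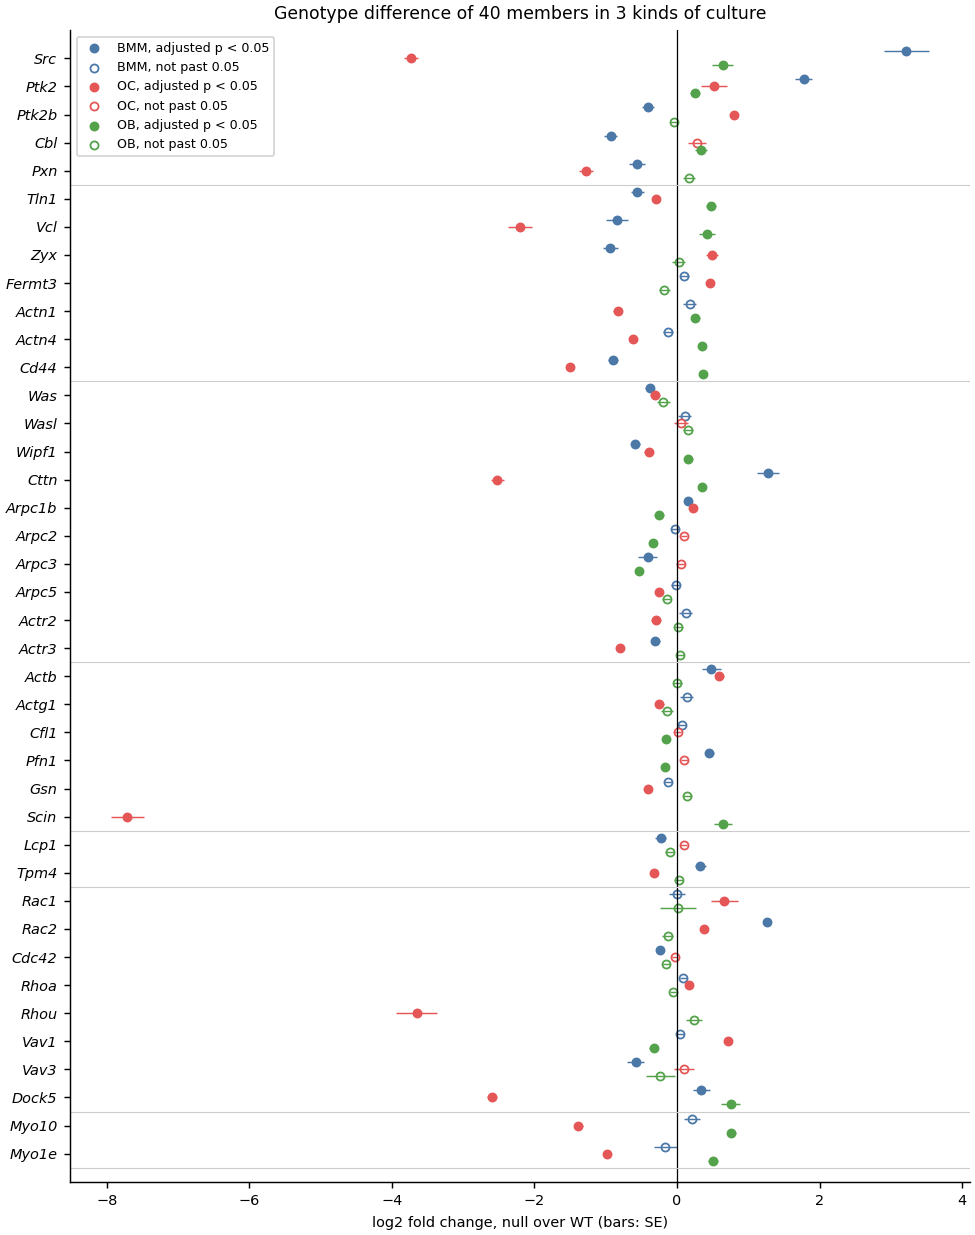
Log2 fold change of null over WT for each of the 40 members in BMM (blue), OC (red) and OB (green), with SE bars, filled points for an adjusted p under 0.05, and grey lines between functional groups. In OC the lower members reach -7.71 (Scin); in BMM Src stands at 3.22; in OB no member exceeds 0.76 in either direction.

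Macrophages already differed between genotypes without RANK-L. Of 38 members tested (Rhou and Scin were below the filter on low counts), 23 passed, 9 higher and 14 lower in null BMM, where 52.4% of 11935 genes passed (27.0% higher and 25.3% lower). Their median was -0.01, beside 0.02 over all genes. Markers of other cell types moved too. Osteoclast markers summed to 158.9 to 202.9 TPM in null BMM against 63.3 to 82.2 TPM in WT BMM (2 higher and 2 lower of 5 tested), with Calcr at 0 in both groups and Mmp9 at a median of 103.5 TPM (90.4 to 131.6) in null against 0.27 TPM (0.07 to 0.58) in WT. Of 8 macrophage markers 3 were higher and 4 lower, and osteoblast markers (3 of 3 tested higher, sums of 11.9 to 30.8 against 2.69 to 7.41 TPM) and smooth muscle and fibroblast markers (2 of 2 tested higher, 18.9 to 23.0 against 2.22 to 3.64 TPM) were low in both. Their part in the members' differences was not tested. The count of members was 24 with null libraries 1, 5 and 6 only and 26 with libraries 2, 3 and 4 only. In 19 members (50.0%) the groups did not overlap, against 30.9% of genes.

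Src gave the largest difference, with 4.79, 8.81 and 11.2 CPM in null against 0.35, 0.86 and 1.83 CPM in WT. Even the lowest null library exceeded the highest WT library, and the log2 fold change was 3.22 ± 0.31 (edgeR adjusted p = 4.29e-07). The null level was still far under the 111.9 to 123.5 CPM of WT OC. Ptk2 had 14, 19.6 and 21.1 CPM against 4.80, 5.39 and 6.60 CPM (1.78 ± 0.12, edgeR adjusted p = 6.1e-09). Cttn had 12.3, 18.8 and 20.3 CPM against 6.00, 6.86 and 9.42 CPM (1.28 ± 0.16, edgeR adjusted p = 4.99e-06). Rac2, at 769.8, 823.4 and 848.1 CPM against 328.2, 336.6 and 367 CPM, had the smallest p of the members (1.27 ± 0.05, edgeR adjusted p = 1.07e-11). The WT response to RANK-L, which shares the WT BMM libraries, was 7.03 for Src, 4.05 for Cttn and 0.91 for Rac2 on the log2 scale, and 2.83-fold for Ptk2. Pfn1 was higher by 0.45 ± 0.06 and Tpm4 by 0.33 ± 0.08 without overlap of the groups. Actb (0.48 ± 0.13), Dock5 (0.34 ± 0.12) and Arpc1b (0.15 ± 0.06) passed with overlap. The Dock5 call was lost without WT BMM library 1, 2, 3, 5 or 6 or null BMM library 3 or 4 (0.26 to 0.33, adjusted p up to 0.0776) and with null libraries 1, 5 and 6 only (0.14), Arpc1b's in 7 of 12 fits that left out a library (0.11 to 0.15), and Actb's with null libraries 2, 3 and 4 only (0.37, adjusted p = 0.132).

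Zyx, Cbl, Cd44 and Vcl led the lower members. Zyx had 64.9, 79.5 and 99.0 CPM in null and 144.3, 154 and 170.3 CPM in WT (-0.94 ± 0.10, edgeR adjusted p = 1.63e-06), and all null libraries lay below all WT libraries. Cbl had 61, 67.8 and 91.1 against 131.6, 137.9 and 143.5 CPM (-0.93 ± 0.09, edgeR adjusted p = 3.42e-07). Cd44 had 197, 232.6 and 241.3 against 379.5, 435.4 and 463 CPM (-0.90 ± 0.07, edgeR adjusted p = 1.86e-08). An adhesion protein, a ubiquitin ligase and a hyaluronan receptor were thus lower in null cells without RANK-L. Vcl was lower by -0.85 ± 0.15, Wipf1 by -0.59 ± 0.07 and Vav3 by -0.58 ± 0.12 on the log2 scale. Pxn (-0.56 ± 0.11) and Ptk2b (-0.41 ± 0.08) were lower with no overlap between groups. Arpc3, Was, Actr3, Cdc42 and Lcp1 were lower by -0.41 to -0.23. Arpc3 was at 244.6 to 308 CPM in null libraries 1, 5 and 6 and at 367.7 to 437.2 CPM in libraries 2, 3 and 4, against 423.9 to 478.1 CPM in WT. Its difference was -0.74 with the former set and, no longer past the threshold, -0.16 (adjusted p = 0.0551) with the latter. The Lcp1 difference was -0.08 (adjusted p = 0.35) with libraries 1, 5 and 6, -0.41 with libraries 2, 3 and 4, and -0.12 (adjusted p = 0.0881) after the length and GC trends were taken out. Tln1 was lower by -0.56 ± 0.09 as summed counts, but 0.03 (adjusted p = 0.871) with an offset for average transcript length. Gsn did not pass (-0.12 ± 0.06, edgeR adjusted p = 0.0799). Rac1 did not pass over all libraries, and it was -0.27 with null libraries 1, 5 and 6 and 0.21 with libraries 2, 3 and 4.

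In osteoblast cultures 20 of 40 members passed between genotypes, with 14 higher in null and 6 lower, where 32.5% of 13614 genes passed (15.5% higher and 16.9% lower). The median log2 fold change was 0.02, beside 0 over all genes, and the groups did not overlap in 12 members (30.0%), against 15.8% of genes. Myo10 had 168, 175.7 and 186.8 CPM in null against 94.6, 101.7 and 117.1 CPM in WT (0.76 ± 0.06, edgeR adjusted p = 1.39e-06), and Dock5 had 23.2, 29.3 and 41.8 CPM against 17.1, 18.1 and 19.5 CPM (0.75 ± 0.13, edgeR adjusted p = 0.000491). Neither gene's groups overlapped. Scin (0.65 ± 0.13), Src (0.64 ± 0.15), Myo1e (0.51 ± 0.07), Tln1 (0.48 ± 0.07), Vcl (0.42 ± 0.11), Cd44 (0.36 ± 0.06), Cttn (0.36 ± 0.06) and Actn4 (0.35 ± 0.05) were higher too. Cbl, Actn1, Ptk2 and Wipf1 were higher by 0.16 to 0.33. Beside these members, 3 of 8 osteoclast markers and 5 of 8 osteoblast markers were higher in null OB and none lower, and their part was not tested. The 6 lower members were 3 Arp2/3 subunits, Vav1, Pfn1 and Cfl1. Arpc3 had 140.7, 161.2 and 174 CPM in null against 213.4, 227.1 and 244.3 CPM in WT (-0.54 ± 0.06, edgeR adjusted p = 1.72e-05), and Arpc2 was lower by -0.33 ± 0.05. Vav1 was lower by -0.33 ± 0.07 beside macrophage markers that were lower in 7 of 8, and the part of these markers was not tested. Arpc1b (-0.25 ± 0.08), Pfn1 (-0.17 ± 0.05) and Cfl1 (-0.16 ± 0.06) passed with overlapping groups. The Arpc1b call was lost without null OB library 2 or 4, and those of Pfn1, Cfl1 and Wipf1 in 7, 9 and 8 of the 12 fits that left out a library, among them null OB library 4 for all 3 (-0.14, -0.13 and 0.16). Actb, Pxn, Ptk2b and Gsn did not pass, with log2 fold changes of 0.01, 0.17, -0.05 and 0.15.

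The osteoblast difference went with transcript length. The 14 higher members had a median transcript length of 4520 bases (2976 to 10335), the 6 lower ones 1218 bases (862 to 2950) and the 20 others 2376 bases. The Spearman correlation between log2 fold change and length was 0.73 across the 40 members and 0.55 across all genes, as a description of genes that share the same 12 libraries. For the genotype difference in BMM the correlations were -0.19 and -0.2, and in RANK-L cultures -0.35 and 0.01. An offset was fitted that takes out, library by library, the trend with transcript length and with GC content. With it the osteoblast correlation was 0.36 across members and 0.01 across all genes, and 13 members passed instead of 20. Of the 20, Myo10, Myo1e, Scin, Src, Cttn, Cd44, Actn4, Arpc2, Arpc3 and Vav1 were still called there. Tln1 (0.13), Vcl (0.16), Dock5 (0.30), Ptk2, Cbl, Actn1, Wipf1 and Arpc1b were not, and Cfl1 and Pfn1 were at 0.06 and 0.12. Ptk2b (-0.18), Lcp1 (-0.20) and Gsn (0.15) were called in addition, and Gsn also passed by DESeq2 (0.16) and limma-voom (0.16). The call of Src was lost with the offset for average transcript length alone (0.45 on the log2 scale, adjusted p = 0.0942).

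**Figure D4:**
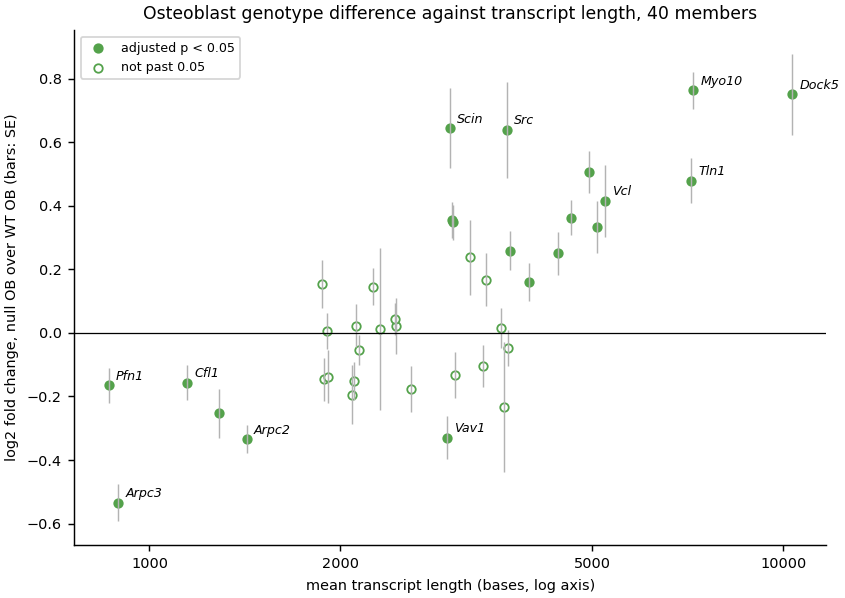
Log2 fold change of null OB over WT OB with SE bars against mean transcript length on a log axis, for the 40 members, filled where the adjusted p is under 0.05. Long genes such as Dock5 and Myo10 lie at 0.75 and 0.76 and short ones such as Arpc3 at -0.54.

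WT osteoblast cultures were set against WT OC to place the members in a cell type that makes focal adhesions rather than podosome belts. Here 38 of 40 members differed, 6 higher and 32 lower in OB, where 83.3% of 13469 genes passed (45.1% higher and 38.3% lower), with a median of -0.85 beside 0.08 over all genes. Groups did not overlap in 38 members (95.0%), against 69.5% of genes. Zyx was most above its OC level, with 212.5, 264.7 and 281.6 CPM in OB against 80.9, 89.0 and 94.2 CPM in OC (1.59 ± 0.06, edgeR adjusted p = 6.56e-14). Vcl (1.38 ± 0.09), Cttn (1.33 ± 0.05), Ptk2 (1.08 ± 0.09), Tpm4 (1.01 ± 0.05) and Wasl (0.83 ± 0.07) were the other higher members. Focal adhesion and stress fibre components are thus among these 6. Scin was lowest in OB relative to OC (-4.48 ± 0.08), followed by Dock5 (-2.50 ± 0.07), Rac2 (-2.41 ± 0.06), Src (-2.33 ± 0.08), Lcp1 (-2.16 ± 0.06) and Myo1e (-2.10 ± 0.06), all with an edgeR adjusted p of 5.91e-15 or less. Pxn (-1.83 ± 0.07), Ptk2b (-1.28 ± 0.06), Actb (-0.76 ± 0.04) and Gsn (-0.60 ± 0.05) were lower as well. Actn1 and Rac1 did not pass. Since OB cultures held macrophage and osteoclast markers, the cells that gave Rac2, Lcp1 or Scin there were not identified.

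The genotype difference itself was compared between OB and OC cultures. This interaction, the null minus WT difference in OB minus that in OC, passed for 31 of 40 members, 18 higher and 13 lower, where 56.3% of 14070 genes passed (26.5% higher and 29.8% lower). The 5 members with the smallest p were Cttn at 2.84 ± 0.11, Myo10 at 2.11 ± 0.08, Cd44 at 1.83 ± 0.08, Scin at 8.32 ± 0.29 and Src at 4.33 ± 0.20, each lower in null RANK-L cultures and higher in null OB. Pxn (1.41 ± 0.14) and Gsn (0.51 ± 0.08) had positive values as well. Ptk2b (-0.89 ± 0.08) and Actb (-0.62 ± 0.08) had negative ones, and Vav1 had the lowest, at -1.08 ± 0.09.

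Transcripts within a member were compared by the share of the gene's TPM held by its leading transcript, in 114 tests over 30 members with at least 5 TPM in every group compared. A 2-sided exact permutation test over all splits of 12 libraries into 6 and 6, adjusted by Benjamini-Hochberg over the 114 tests, passed in 27, of which 8 were in BMM, 10 in OC, 2 in OB and 7 in the WT response to RANK-L. The smallest p it can give is 0.00216. The test was run on members only, so no share over all genes stands beside these counts, and they are no result about podosome genes. When libraries were paired by number 0 of the tests passed, where the smallest p is 0.0312. Ptk2b-202, a protein-coding transcript of 3903 bases, held 88.9% ± 2.0 (SD, n = 6) of Ptk2b in WT BMM and 58.6% ± 6.5 in WT OC (exact p = 0.00216, adjusted p = 0.0165), while Ptk2b-208 rose from 4.67% to 19.4%. In null BMM Ptk2b-202 held 65.7% ± 15.3, from 44.9% to 82.4%, which was lower than in WT BMM (exact p = 0.00216, adjusted p = 0.0165). In null RANK-L cultures Ptk2b-202 held 75.7% ± 3.13, from 72.6% to 80.7%, inside the range of null BMM. The change of this share with RANK-L in null cells was not tested. Pxn-201 went from 90.9% ± 2.85 in WT BMM to 75.6% ± 2.89 in WT OC (exact p = 0.00216, adjusted p = 0.0165). It held 95.2% ± 2.37 in null BMM and 94.3% ± 1.64 in null RANK-L cultures. The retained-intron transcript Pxn-206, of 524 bases, was at 6.56% ± 2.2 in WT OC and at 0 in both BMM groups and in null RANK-L cultures. Actn4-201 held 47.1% ± 2.76 in WT BMM and 59.7% ± 2.21 in null BMM (exact p = 0.00216, adjusted p = 0.0165).

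Tln1-201, the full-length talin transcript of 8393 bases, held 93.1% ± 2.21 in WT BMM against 62.0% ± 16.5 in null BMM (exact p = 0.00216, adjusted p = 0.0165). Within null BMM it was at 72.6% to 80.3% in libraries 1, 5 and 6 and at 44.7% to 52.4% in libraries 2, 3 and 4. All 6 null values were below the lowest WT value of 91.0%. In RANK-L cultures Tln1-201 held 79.6% ± 8.93 in null against 92.2% ± 2.51 in WT (exact p = 0.00433, adjusted p = 0.0274). Tln1-206, a transcript of 836 bases, held 29.0% ± 19.1 in null BMM and 1.93% ± 3.0 in WT BMM, and 9.16% ± 9.47 in null RANK-L cultures. Shares are estimates from reads that several transcripts can hold.

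**Figure D5:**
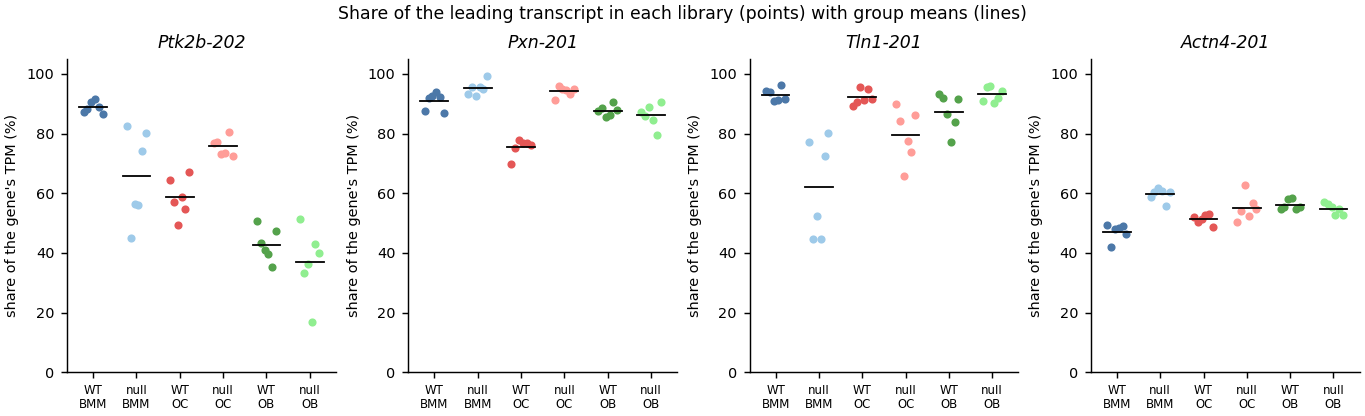
Percent of the gene's TPM held by Ptk2b-202, Pxn-201, Tln1-201 and Actn4-201 in each library (points), with group means as lines, for the 6 groups. Ptk2b-202 and Pxn-201 are lower in WT OC than in WT BMM, and Tln1-201 spreads from 44.7% to 80.3% in null BMM.

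A list of 96 further podosome genes gives the surroundings of the members. In WT cells with RANK-L, 29 were higher and 39 lower of 96 tested, beside 30.4% and 30.1% of all genes. Fgr, a Src family kinase, rose by 4.32 ± 0.13, the small GTPase Rhof by 2.90 ± 0.13 and the F-BAR adaptor Pstpip1 by 2.46 ± 0.10, while pleckstrin (Plek), Evl and the cofilin phosphatase Ssh2 fell by 2.20 ± 0.07, 2.17 ± 0.07 and 1.91 ± 0.10. In null against WT RANK-L cultures 41 of 95 were higher and 24 lower, beside 32.4% and 33.1% of all genes. Supervillin, Svil (2.15 ± 0.09), Evl (1.81 ± 0.07) and Rhob (1.44 ± 0.18) were the highest, and Rhof (-2.83 ± 0.14), Pstpip1 (-1.95 ± 0.06) and Sh3pxd2a, the Tks5 scaffold of podosomes (-1.63 ± 0.13), the lowest. In BMM 34 of 93 were higher in null and 30 lower, beside 27.0% and 25.3% of all genes. The highest were Fgr at 4.57 ± 0.13, Pstpip2 at 1.32 ± 0.15 and Vasp at 1.23 ± 0.07, and the lowest were Lsp1 at -1.12 ± 0.08, Plek at -1.10 ± 0.09 and Sh3pxd2a at -1.01 ± 0.17. Fgr thus stood at 86.3 ± 9.46 CPM (mean and SD, n = 6) in null BMM, beside 3.65 ± 0.80 CPM in WT BMM and, with RANK-L, 72.8 ± 2.28 CPM in WT OC. In OB 26 of 96 were higher and 20 lower, beside 15.5% and 16.9% of all genes, with the long genes Tln2 (0.80 ± 0.10), Lpp (0.74 ± 0.08) and Myh9 (0.70 ± 0.10) highest and Lpxn (-0.60 ± 0.12), Plek (-0.58 ± 0.10) and the short Tmsb4x (-0.55 ± 0.10) lowest. All of these passed edgeR's quasi-likelihood test at an adjusted p of 0.00143 or less.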

How the data were processed

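Per the submitters' processing notes, kallisto and DESeq2 were used, and a build name of GRCh38 is listed although the transcript identifiers are mouse. The deposited tables give for every transcript, per the file headers, its length and the authors' estimated counts (often not whole) and TPM values, which sum to 1000000 in a library. The strand setting of the quantification is not given in the sources used here, so reads of a gene and an antisense partner cannot be told apart. Of 88198 transcripts, 97.6% matched GENCODE M21 (GRCm38) by identifier, and the rest held 0.61% to 0.96% of counts. Of the matched transcripts 88.8% had the annotated length. The UTR windows, shared words and GC content come from M21 sequence, which can therefore differ from the transcripts that were quantified. Counts were summed per gene and rounded. The test was edgeR 4.0.16 in R 4.3.3 (quasi-likelihood F, robust), after filterByExpr and TMM scaling, with Benjamini-Hochberg adjustment over all genes and a threshold of 0.05. Genotype comparisons used the 12 libraries of a culture, and the WT osteoblast comparison its 12. The RANK-L comparisons and both interactions used 24 libraries with 1 mean per group. CPM are scaled by TMM over all 36 libraries. SE is the log2 fold change over the root of F. The steps were tested on simulated counts with a biological coefficient of variation of 20% in every library. In each comparison 67 genes were changed 1.5-fold, 67 genes 2-fold and 66 genes 4-fold, drawn from genes with a mean of at least 10 counts. In the genotype comparisons 40.3% to 49.3% of 1.5-fold changes and 89.6% to 97% of 2-fold changes were recovered. In the RANK-L interaction it was 10.4% and 65.7%, and in the OB and OC interaction 13.4% and 64.2%. In the data 32.5% to 65.5% of all genes passed in the genotype comparisons, and the biological coefficient of variation of WT groups was 9.44% to 12.9%. The recovered shares may therefore not hold for the tests reported here. A member that did not pass can still differ.

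The members and lists were chosen with earlier results of these data known. Named with full statistics were up to 6 members per direction with the largest passing change and a mean of at least 10 CPM, the 5 with the smallest p in an interaction, Src, Ptk2b, Pxn, Gsn, Cttn and Actb throughout, and 3 per direction of the 96 further genes; the fold changes of other members are given in brief. Marker lists were osteoclast, macrophage, osteoblast, neutrophil, smooth muscle and fibroblast, adipocyte, proliferation, and B and T cell. The alternatives were DESeq2 1.42.0 and limma 3.58.1 (voom with quality weights), RLE in place of TMM, a filter at a mean of 10 counts or none, a replicate block, offsets for average transcript length and for length and GC content (lowess span 0.3), a fit of all 36 libraries and leaving out each library. Transcript shares of TPM were also taken from estimated counts (22 passing in place of 27). The sets of null BMM libraries were chosen after seeing the data, from the same values, so their fits are descriptions only.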

Additional observations from a re-analysis of the deposited data

Results flagged for a closer look

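In 15 of 233 groups of 6 libraries with a mean of at least 1 CPM, one library stood apart from the other 5 by Dixon's test of log2(CPM + 0.1) at the 95% level, where chance gives about 1 in 20. All values are CPM. In WT OC, library 2 was lowest for Vcl (45.07, others 57.13 to 65.05) and Vav3 (13.9, others 15.93 to 16.75). In WT OB, library 4 was lowest for Tln1 (141.9, others from 166.8), Zyx (212.5, others from 256.3) and Cbl (27.35, others from 33.59), and library 6 for Actb (7494, others from 7966). In null RANK-L cultures, library 6 was lowest for Cbl (43.43, others from 72.79) and Actr3 (449.3, others from 500.1), and library 5 was highest for Arpc5 (1026, others up to 847.2). In null OB, library 6 was lowest for Actn1 (123.2, others from 144.5). In null BMM, single libraries were highest for Wasl (17.73), Wipf1 (148.8), Rhoa (631.5) and Tpm4 (519.9), and in WT BMM library 4 was highest for Dock5 (15.31, others up to 12.46).

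Responses to RANK-L that differed between genotypes by edgeR's interaction test were those of Src (-6.95), Cttn (-3.79), Dock5 (-2.92), Rac2 (-0.87) and Ptk2b (1.22), given as log2 values of null minus WT, and of 32 members in all. Genotype differences that differed between OB and OC cultures by the same test were those of Scin (8.32), Src (4.33), Cttn (2.84), Myo10 (2.11) and Cd44 (1.83), and of 31 members in all.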

How the results depend on the processing

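Counts of members past the threshold stayed within 1.5 times of the reported count under every alternative run, except in 2 comparisons. In OB, the offset for length and GC content gave 13 members and 2289 genes. For RANK-L in null cells, limma-voom gave 7 members and 1037 genes, null BMM libraries 1, 5 and 6 gave 3 members and 87 genes, and libraries 2, 3 and 4 gave 16 members and 3829 genes. Leaving out one library there gave 6 to 12 members and 811 to 2143 genes, the lowest counts coming without null BMM libraries 2, 3 or 4 or null RANK-L library 3. Signs turned for Tln1 with the average-length offset (0.027 in BMM, -0.096 in the RANK-L interaction), for Cfl1 and Pfn1 with the length and GC offset (0.061 and 0.121 in OB, 0.071 and 0.002 in the OB and OC interaction) and for Rac1 in BMM with null libraries 2, 3 and 4 (0.205); the cause was not tested. Same-numbered libraries did not deviate together (r from -0.13 to 0.10; in no pair of groups did every library correlate best with its own number). The replicate block gave 986 genes for RANK-L in null cells and no transcript share past the threshold, where its smallest p is 0.0312. It left the members' counts at 22 in BMM, 31 in OC, 17 in OB and 9 for RANK-L in null cells. Leaving out one library gave 16 to 27 passing transcript shares, the lowest without WT OC library 4. Depth limits Rhou and Scin in BMM and null RANK-L cultures, where single libraries held 0 to 25 counts.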
